A study of Mus musculus with 16 samples.

Results

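The comparison described here is the interaction of genotype with dexamethasone in mouse liver, that is, the response to dexamethasone in GR knockout livers minus the response in wild-type livers, gene by gene. It used all 16 arrays of the series, 4 in each of 4 groups: knockout livers given dexamethasone, untreated knockout livers, wild-type livers given dexamethasone and untreated wild-type livers. All mice were male C57BL/6 animals aged 3 months per the labels, the RNA was total RNA of whole liver, and each sample was labelled with Cy3 and put on 1 Agilent whole mouse genome array. The knockout lacks the glucocorticoid receptor (GR, gene Nr3c1) in liver. The sources used here give neither the Cre driver nor the deleted part of the gene, and no dose, route or duration of dexamethasone. The untreated groups are called untreated in the source names although the protocol speaks of vehicle, and knockout titles also carry the word PBS. Whether each sample came from its own mouse is not stated, so the p-values measure the spread between these samples, which may be technical.

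The glucocorticoid receptor is a nuclear receptor that waits in the cytoplasm bound to chaperones, moves to the nucleus when it binds a steroid, and raises or lowers transcription there. In hepatocytes its textbook targets serve glucose production, amino acid breakdown, the acute phase response and the clock, and it also damps inflammatory genes. Dexamethasone is a synthetic ligand that reaches every cell of the body, while a liver knockout removes the receptor from some cells of the liver and leaves it in other organs. A gene can therefore keep, lose, turn round or newly show a response when the receptor is absent from liver, and the shapes below sort genes in that way by tests alone. In RNA of whole liver, fewer cells of a type and less RNA per cell cannot be told apart.

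The level of the targeted gene was checked first. The brightest Nr3c1 probe lay at -0.10, 0.44, 0.0 and 0.34 on treated knockout arrays, against 0.24, 0.45, 0.56 and 0.41 on untreated ones. Wild-type arrays gave 1.93, 2.18, 2.18 and 2.26 on treated arrays, against 2.48, 2.47, 2.52 and 2.13 on untreated ones. All levels are log2 signals with each array's 75th percentile set to 0, and by this probe every knockout array lay below every wild-type array. Dimmer Nr3c1 probes gave knockout differences of -1.95, -1.93 and -0.97 with dexamethasone and -2.10, -2.25 and -1.62 without it. The last of each, from the same probe, was not called (limma adjusted p = 0.196 and 0.103). By that probe treated knockout array 1, at -1.45, lay above every wild-type array. By the brightest probe the knockout was lower by 1.96 with dexamethasone (log2 -1.96, SE 0.14, limma adjusted p = 6.36e-06) and by 1.99 without it (log2 -1.99, SE 0.14, adjusted p = 1.63e-05), and the interaction of Nr3c1 was 0.02 (SE 0.20, adjusted p = 0.984) with a 95% interval of -0.41 to 0.46. The 75th percentile of raw signal was 309 on untreated knockout array 1, 400 on untreated wild-type array 4 and 524 to 691 elsewhere, and untreated knockout array 1 correlated least with its own group (mean r 0.963 across genes, against 0.975 to 0.980 for the other 3). Both arrays bear on results below. The 4 arrays of a group shared a slide of their own, and the effects of slide and group cannot be told apart.

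Limma tested 18476 genes, and the interaction was called (p under 0.05 after Benjamini-Hochberg adjustment across the 18476) for 849 of them, or 4.6%, with 352 positive (1.91%) and 497 negative (2.69%). The dexamethasone response itself was called for 664 genes in knockout (3.59%) and 2214 in wild type (12%, with 5.19% higher and 6.79% lower). A response was counted as lost when the wild-type change and an interaction against it were called and the knockout change was not, as kept when both genotypes were called in the same direction without an interaction, as reversed when both were called in opposite directions with an interaction, and as gained when the knockout change and the interaction were called and the wild-type change was not. By these rules 364 responses were lost (1.97% of genes), 176 kept (0.953%), 80 reversed (0.433%) and 247 gained (1.34%). 1 further fall, called in both genotypes, was smaller in knockout, no gene was called as enhanced, and 157 genes passed the interaction with no call in either genotype. Most of the wild-type calls, 1593 of 2214 (72.0%), were unresolved, with neither a knockout call nor an interaction call, against 16.4% lost, 7.95% kept and 3.61% reversed. An unresolved gene is not shown to have kept or lost its response. Of the 664 knockout calls, 247 (37.2%) were gained, 176 (26.5%) kept and 80 reversed, and 160 were called in knockout alone without an interaction call.

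**Figure D1:**
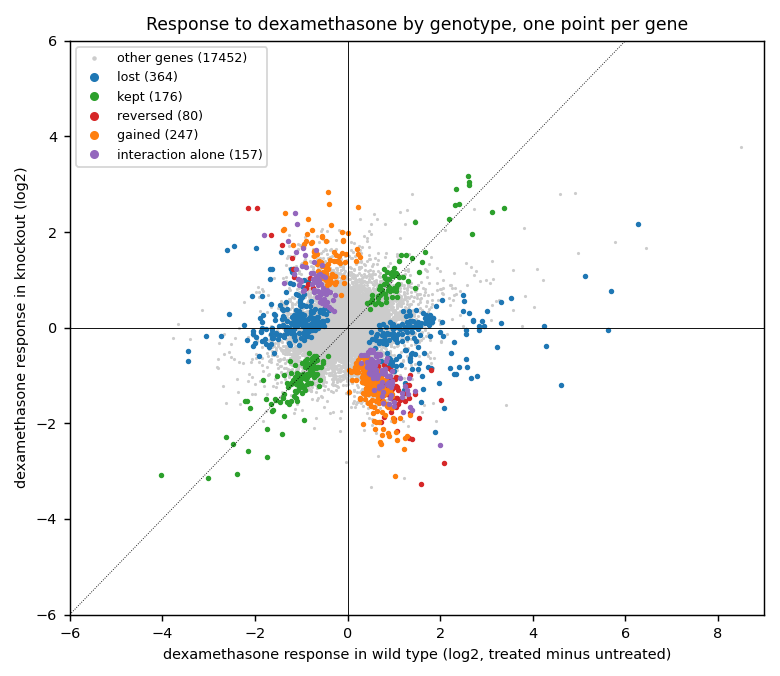
Response to dexamethasone in knockout (vertical axis, log2, treated minus untreated) against that in wild type (horizontal axis, log2), 1 point per gene, coloured by shape, with a dotted line where both are equal. Lost responses lie along the horizontal axis (364 genes), kept ones along the dotted line (176), and reversed (80) and gained ones (247) mostly below the horizontal axis and to the right of 0.

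Across all genes the knockout and wild-type responses, which share no arrays, correlated weakly (Pearson r 0.137 over 18476 genes). Over the brighter 13857 genes r was 0.319, and over the dimmest 25%, 4619 genes with a mean level of -3.23 or below, r was -0.0762. These are descriptions across genes, which are not independent replicates and which share array-wide effects of level.

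Responses lost without hepatic receptor came as 164 rises and 200 falls. The lost rises had a median wild-type change of 1.38 and a median knockout change of -0.13, and the lost falls medians of 0.09 in knockout and -1.07 in wild type. Since the shape is defined by these calls, the medians describe the groups and test nothing. The genotypes were also compared under each condition, on the same group means that the rule used, so the counts describe the shapes and are no separate support. In treated livers 155 of the 164 lost rises were called lower in knockout and 199 of the 200 lost falls called higher, against 8.21% of all genes called lower, 14.1% higher and 22.3% in either direction. In untreated livers 14 and 3 were called, against 2.82% of all genes. For 145 and 196 of them the genotypes were called apart under dexamethasone only.

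Gadd45b, which encodes a stress-induced activator of p38 and JNK signalling, had the largest interaction of the named lost rises. Its probe (chromosome 10, 80721751 to 80721810, build mm7) lay at -2.23, 0.49, -0.77 and -0.62 on treated knockout arrays, against -0.98, -2.38, -1.16 and -1.68 on untreated ones. The wild-type levels were 4.78, 2.77, 4.08 and 4.88 on treated arrays, against -2.05, -1.53, -2.05 and -0.60 on untreated ones. Only the treated wild-type arrays stood apart, with no overlap with untreated wild type or with treated knockout, while both knockout groups overlapped. The response was 0.77 (SE 0.57, adjusted p = 0.553) in knockout and 5.69 (SE 0.57, adjusted p = 0.000106) in wild type, a 51.5-fold rise, and the interaction was -4.92 (SE 0.80, adjusted p = 0.00428). A second Gadd45b probe gave an interaction of -4.41 (SE 0.58).

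Defb1, a beta-defensin that kills microbes at epithelial surfaces, behaved alike at a lower level. It lay at -3.93, -2.53, -3.65 and -2.65 on treated knockout arrays, against -3.52, -3.40, -2.65 and -1.64 on untreated ones. In wild-type livers it measured 1.98, -0.20, 0.59 and 0.39 on treated arrays, against -3.99, -4.21, -3.23 and -2.98 on untreated ones. Again the treated wild-type arrays lay above all others, without overlap. The response was -0.39 (SE 0.51, adjusted p = 0.767) in knockout and 4.29 (SE 0.51, adjusted p = 0.000257) in wild type, 19.6-fold, with an interaction of -4.68 (SE 0.72, adjusted p = 0.00329), which was -3.02 under normexp background correction, and a second probe gave -4.54 (SE 0.71). Fibin, a secreted protein gene named for fin bud development in zebrafish, lay at -1.94, -1.92, -1.35 and -1.47 on treated knockout arrays, against -2.25, -1.59, -2.03 and -1.18 on untreated ones. Its wild-type levels reached 1.98, 0.27, 2.22 and 2.28 on treated arrays, against -1.88, -1.58, -1.86 and -1.20 on untreated ones. Treated wild-type array 2 was the lowest of its group yet above every untreated wild-type array. Its interaction was -3.22 (SE 0.53, adjusted p = 0.00444).

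The lost rise with the smallest error relative to its size was that of Cab39l, an MO25-type scaffold of the LKB1 kinase. It lay at 3.86, 4.01, 4.15 and 4.02 on treated knockout arrays, against 3.76, 4.01, 3.93 and 4.09 on untreated ones. Levels in wild type were 5.90, 5.51, 5.76 and 5.51 on treated arrays, against 4.09, 3.99, 3.96 and 4.52 on untreated ones. The knockout arrays overlapped across treatment, and all 4 treated wild-type arrays lay above the rest. The response was 0.06 (SE 0.14, adjusted p = 0.879) in knockout and 1.53 (SE 0.14, adjusted p = 0.000106) in wild type, and the interaction -1.47 (SE 0.20, adjusted p = 0.0021). The same form was measured for Emc8, a subunit of the ER membrane protein insertase (interaction -1.37 (SE 0.19, adjusted p = 0.0021)), and Atp11b, a phospholipid flippase (interaction -1.30 (SE 0.19, adjusted p = 0.00279)). Stxbp3, which regulates SNARE-mediated fusion, had an interaction of -1.31 (SE 0.19, adjusted p = 0.00305) and Rab7, a late endosome GTPase, of -1.06 (SE 0.17, adjusted p = 0.00354). In these 4 genes the knockout response lay between -0.13 and 0.04 and the wild-type response between 1.09 and 1.37, with treated wild-type arrays above all others. Dimmer probes gave weaker interactions for Emc8 (-0.48, SE 0.24) and Atp11b (-0.59, SE 0.37), and -1.03 (SE 0.23) for Rab7. Those of Cab39l gave -1.69 (SE 0.31) and -0.34 (SE 0.57).

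Among lost falls Dbp, a clock output transcription factor, stood first by its test statistic. Its probe (chromosome 7, 41886169 to 41886228, mm7) lay at 7.36, 7.64, 7.74 and 7.15 on treated knockout arrays, against 8.12, 7.89, 6.98 and 7.58 on untreated ones. In wild type it lay at 4.35, 5.06, 4.75 and 3.96 on treated arrays, against 7.20, 7.70, 6.84 and 7.33 on untreated ones. Treated wild-type livers lay below the other 3 groups, which overlapped one another. The response was -0.17 (SE 0.27, adjusted p = 0.814) in knockout and -2.74 (SE 0.27, adjusted p = 0.000106) in wild type, a 6.67-fold fall, and the interaction 2.57 (SE 0.39, adjusted p = 0.00318). Gadd45a, a relative of Gadd45b known for growth arrest after DNA damage, lay at 2.47, 2.51, 2.43 and 1.92 on treated knockout arrays, against 0.98, 1.76, 1.97 and 1.96 on untreated ones. Its wild-type levels were -2.11, -1.50, -2.48 and -1.90 on treated arrays, against 0.51, -0.16, 0.01 and -0.97 on untreated ones. It moved opposite to Gadd45b in wild type. It was also higher in untreated knockout livers than in untreated wild type by 1.82 (SE 0.30, adjusted p = 0.0088), and its interaction was 2.51 (SE 0.43, adjusted p = 0.00555).

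Igsf8, a tetraspanin partner at the cell surface, lay at 0.31, -0.11, 0.35 and 0.12 on treated knockout arrays, against -0.02, 0.03, -0.07 and -0.25 on untreated ones. Wild-type arrays gave -1.79, -1.37, -1.33 and -1.53 on treated arrays, against -0.29, 0.49, -0.19 and -0.44 on untreated ones. Its response was 0.25 (SE 0.19, adjusted p = 0.559) in knockout and -1.40 (SE 0.19, adjusted p = 0.000547) in wild type, with an interaction of 1.65 (SE 0.26, adjusted p = 0.00378). Dzip1l, a ciliary transition zone gene, had a knockout response of 0.74 (SE 0.27, adjusted p = 0.152), against -1.34 (SE 0.27, adjusted p = 0.00525) in wild type, and an interaction of 2.08 (SE 0.38, adjusted p = 0.00769) (1.34 under normexp). Further lost falls under the naming rule were Mmp15, a membrane-bound matrix metalloproteinase (interaction 1.60 (SE 0.29, adjusted p = 0.00769)), Mov10, an RNA helicase (interaction 1.19 (SE 0.21, adjusted p = 0.0076)), and Meiob, a meiotic recombination gene in germ cells (interaction 1.31 (SE 0.22, adjusted p = 0.00512)). Ldlrad4, an inhibitor of TGF-beta signalling, had an interaction of 1.30 (SE 0.24, adjusted p = 0.00852), which fell short with the mean of its probes (0.96, adjusted p = 0.17). All 8 lost falls had treated wild-type arrays below untreated wild type and below treated knockout, with no overlap. These 16 genes were named because their calls held without each array in turn and under normexp, so they look steadier than the 364.

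**Figure D2:**
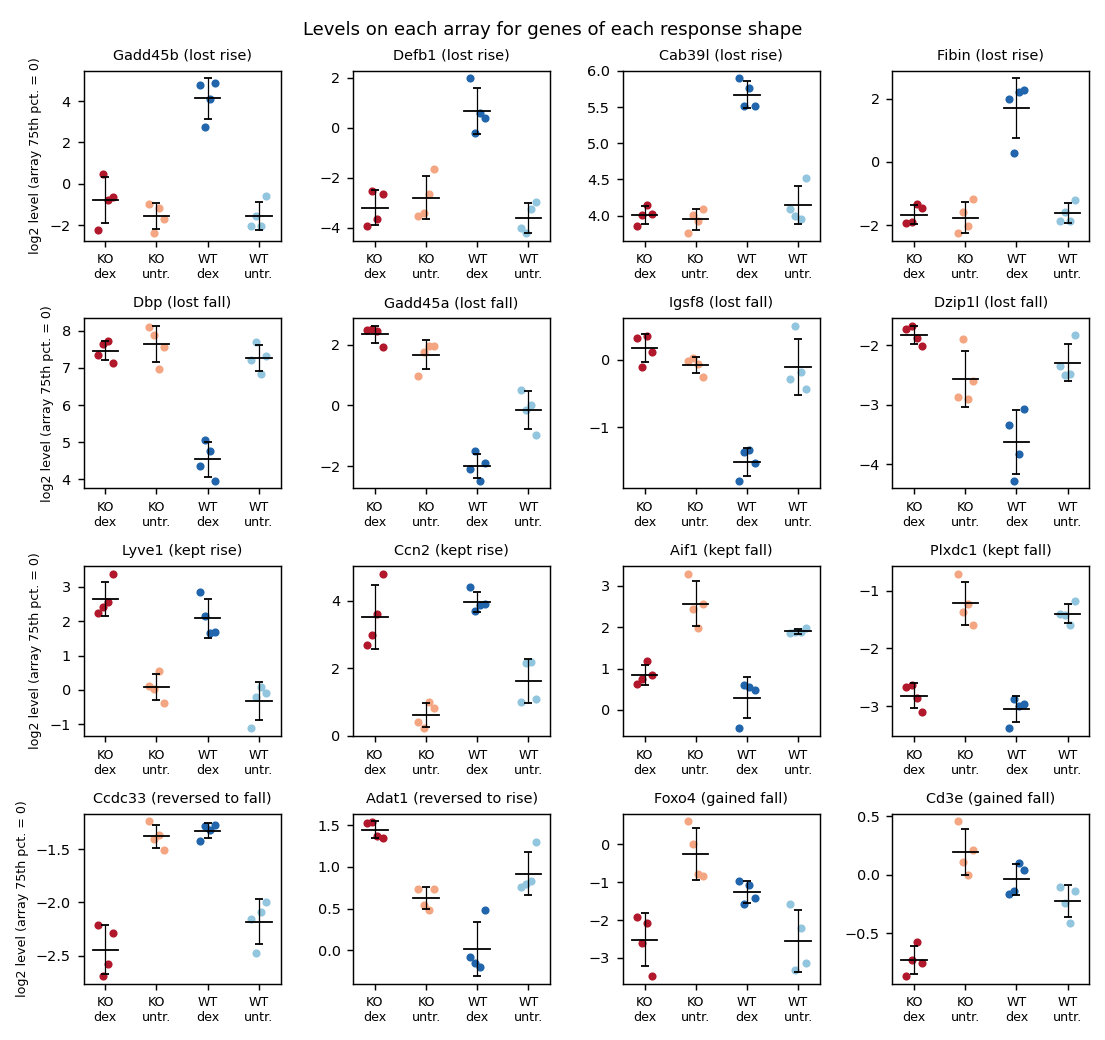
Level on each array (log2, array 75th percentile set to 0) of 16 genes, 4 lost rises, 4 lost falls, 4 kept responses and 4 reversed or gained ones, in treated and untreated knockout (KO) and treated and untreated wild type (WT) livers. Points are arrays, lines the mean and bars the SD (n = 4). In the upper rows treated wild type stands apart, as for Gadd45b at 2.77 to 4.88. For Gadd45a untreated wild type also lies below untreated knockout. In the third row treatment separates both genotypes.

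Lost falls were brighter than other genes at the median, and lost rises were not. The median level was -0.69 for rises and 0.74 for falls, against -0.68 for all genes tested, and 29.3% and 17.0% lay in the dimmest 25%. For 127 of the 364 a second probe of the gene was measured, and its interaction had the same sign in 118 (92.9%), against 68.4% of 6004 genes with 2 probes. Both probes read the same RNA samples, so the second is no independent replicate. The median interaction in the direction of the first probe was 1.17 by the first and 0.90 by the second, although second probes were dimmer by choice of the brightest as the first. Under normexp background correction the sign was the same for 160 of 164 rises and all 200 falls, but the interaction call remained for 47 rises and 18 falls. Without untreated knockout array 1 the shape was the same for 159 rises and 190 falls.

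Pathway lists were read against these shapes. Of 298 tested members of 19 lists, 19 were lost (6.38%, against 1.97% of all genes), 7 kept, 2 gained and none reversed, and 46 unresolved (8.62% of all genes were unresolved). Of the 22 list members called for the interaction, markers of other cells included, 8 were called under normexp, 9 in every fit that left out 1 array and 6 in both. The lists were chosen for liver and glucocorticoid biology with earlier results known, so the higher share is a description. Of 23 cholesterol synthesis genes 2 were lost falls and none was called negative for the interaction, with a median interaction of 0.70 against 0.03 over all genes. Stard4, an intracellular sterol carrier, lay at 3.30, 3.59, 3.27 and 2.98 on treated knockout arrays, against 3.56, 3.84, 3.69 and 3.60 on untreated ones. The wild-type levels were 1.13, 2.05, 1.73 and 1.36 on treated arrays, against 3.75, 4.09, 3.97 and 2.63 on untreated ones. Untreated wild-type array 4 lay lowest of its group but above the treated arrays. The interaction of Stard4 was 1.66 (SE 0.39, adjusted p = 0.0269), with an adjusted p = 0.0592 under normexp and 0.105 with the mean of its probes, and it was called in 9 of 16 fits with an array left out. Insig1, the sterol-sensing retainer of SREBP in the ER, had 1.48 (SE 0.39, adjusted p = 0.0437). The other 21 members did not pass.

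The lipogenesis list gave 2 lost falls among 20 members, against 1.97% of all genes lost. Srebf1, the transcription factor that drives fatty acid synthesis, lay at 7.58, 8.23, 7.69 and 7.36 on treated knockout arrays, against 7.70, 8.0, 6.54 and 7.46 on untreated ones. In wild-type livers it measured 4.04, 5.02, 4.11 and 3.17 on treated arrays, against 7.81, 7.48, 6.23 and 5.12 on untreated ones. Its interaction was 2.86 (SE 0.74, adjusted p = 0.0408), and that of Acly, which makes cytosolic acetyl-CoA, 1.70 (SE 0.46, adjusted p = 0.0496). The calls of Srebf1, Acly and Insig1 held in 4, 3 and 4 of the 16 fits that left out an array, and none held under normexp. Untreated wild-type array 4 was the lowest of its group for all 3 genes and for Stard4. Without it the interactions were 3.37 for Srebf1, 2.04 for Acly, 1.77 for Insig1 and 1.99 for Stard4, each called. The array was singled out after its levels were seen. Leaving out the lowest untreated array enlarges these interactions, so the calls without it are no separate support.

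Single catabolic and acute phase genes were lost rises, against 1.97% of all genes lost. Aass, which starts lysine breakdown, was 1 of 24 amino acid catabolism genes tested and the only one called for the interaction, against 4.6% of all genes. It lay at 5.78, 5.99, 5.50 and 6.21 on treated knockout arrays, against 5.52, 5.81, 5.84 and 6.25 on untreated ones. Aass in wild type was at 7.93, 7.77, 7.78 and 8.07 on treated arrays, against 6.26, 6.19, 6.12 and 7.10 on untreated ones. Treated wild-type arrays were above all others, the interaction was -1.46 (SE 0.31, adjusted p = 0.0173), and it was called in every fit that left out an array. Slc25a15, the mitochondrial ornithine carrier of the urea cycle, had an interaction of -1.33 (SE 0.32, adjusted p = 0.0266) and was the single called member of 8 urea cycle genes. Its call was made in 10 of 16 fits with an array left out and missed under normexp (adjusted p = 0.0786). Of 25 acute phase genes Orm3, an orosomucoid, and Saa4, a constitutive serum amyloid of lipoproteins, were lost rises. Saa4 lay at 5.45, 6.07, 5.44 and 5.96 on treated knockout arrays, against 6.71, 5.67, 5.14 and 5.60 on untreated ones. Levels in wild type were 8.82, 8.71, 8.79 and 8.63 on treated arrays, against 6.22, 5.39, 5.21 and 7.93 on untreated ones. The treated wild-type arrays lay close together, while untreated array 4 was far above its group. The interaction of Saa4 was -2.60 (SE 0.66, adjusted p = 0.0383), called in 3 of 16 fits with an array left out and missed under normexp (adjusted p = 0.0573). That of Orm3 was -3.72 (SE 0.86, adjusted p = 0.0237), called in 12 of the 16 fits and under normexp.

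Interferon-stimulated genes split. Of 25 members 16 were called lower in treated than in untreated wild type, against 6.79% of all genes, and 5 were lost responses, 2 kept and 10 unresolved, against 1.97%, 0.953% and 8.62% of all genes. Oasl1, Isg15, Zbp1 and Irf9 were lost falls, with interactions of 1.93 (SE 0.45, adjusted p = 0.0262), 1.29 (SE 0.31, adjusted p = 0.0271), 1.90 (SE 0.49, adjusted p = 0.0404) and 0.94 (SE 0.22, adjusted p = 0.0255). Isg15 and Zbp1 were named after their values were seen. None of these 4 calls held under normexp, with adjusted p of 0.0714 for Oasl1, 0.167 for Isg15, 0.169 for Zbp1 and 0.152 for Irf9. The call of Zbp1 was made in 4 of 16 fits with an array left out, and the calls of the other 3 in 11. The antiviral genes Ifit2 and Oasl2 were kept falls, at -1.05 (SE 0.18, adjusted p = 0.00652) and -1.13 (SE 0.20, adjusted p = 0.00649) in knockout and -1.02 (SE 0.18, adjusted p = 0.00304) and -1.11 (SE 0.20, adjusted p = 0.00271) in wild type. Usp18, which removes the ISG15 modifier and restrains interferon signalling, went the other way. It lay at 0.85, 1.10, 1.32 and 1.40 on treated knockout arrays, against 1.22, 1.19, 1.29 and 2.07 on untreated ones. In wild type it lay at 2.49, 1.43, 2.35 and 2.52 on treated arrays, against 0.80, 0.71, 0.80 and 0.59 on untreated ones. It rose with dexamethasone in wild type by 1.47 (SE 0.24, adjusted p = 0.00184), and its interaction was -1.75 (SE 0.34, adjusted p = 0.0118), called under normexp and in every fit with an array left out.

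Beside Dbp, the clock list held Clock, the core clock activator, whose rise was lost (interaction -1.37 (SE 0.32, adjusted p = 0.0263)). Its call was made in 11 of 16 fits with an array left out and missed under normexp (adjusted p = 0.067) and with the mean of its probes (-0.98, adjusted p = 0.0751). The single called gene of the bile acid list was Fgfr4, the hepatic FGF15 receptor, whose fall was lost (interaction 0.99 (SE 0.21, adjusted p = 0.0173), adjusted p = 0.051 under normexp). Dimmer Fgfr4 probes gave interactions of 0.90 (SE 0.23) and 1.35 (SE 0.17). By the latter the response was 0.63 (adjusted p = 0.0125) in knockout and -0.73 (adjusted p = 0.00184) in wild type, the form of a reversed response. Sult1e1, the estrogen sulfotransferase of the female-biased list, had the largest wild-type change of any lost response. It lay at -2.10, -2.15, -3.95 and -1.59 on treated knockout arrays, against -4.85, -5.02, -5.01 and -3.61 on untreated ones. Wild-type arrays gave 5.12, 3.40, 3.68 and 3.84 on treated arrays, against -2.26, -2.93, -4.09 and 0.25 on untreated ones. It rose 77-fold in wild type, its knockout change was 2.17 (SE 0.75, adjusted p = 0.138), and the interaction of -4.09 (SE 1.07, adjusted p = 0.0415) was called in 4 of 16 fits with an array left out. It was above background on 2 of 4 untreated knockout arrays and on all arrays of the other groups. No member of the gluconeogenesis (10 tested), fatty acid oxidation (21), male-biased (13) or unfolded protein (16) lists was called for the interaction, with median interactions of -0.43, -0.04, 0.18 and 0.14. Over all genes 4.6% were called, with a median of 0.03, so few calls would be looked for in lists of this size.

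Several of the largest wild-type rises were unresolved, and these 4 genes were chosen after their values were seen. Lcn2, an iron-sequestering acute phase protein, lay at -1.07, -2.01, -2.31 and -0.45 on treated knockout arrays, against -2.57, -4.41, -2.02 and -3.51 on untreated ones. The wild-type levels were 3.82, 3.29, 3.15 and 4.23 on treated arrays, against -2.57, -4.37, -4.94 and 0.62 on untreated ones. Its response was 1.66 (SE 0.93, adjusted p = 0.399) in knockout and 6.44 (SE 0.93, adjusted p = 0.000887) in wild type, and the interaction of -4.77 (SE 1.31, adjusted p = 0.0534) missed the threshold. Cdkn1a, the cell cycle inhibitor p21, had 1.80 (SE 0.81, adjusted p = 0.276) in knockout and 5.78 (SE 0.81, adjusted p = 0.000762) in wild type, with an interaction of -3.98 (SE 1.15, adjusted p = 0.065). The metallothioneins Mt1 and Mt2, which bind zinc and copper, had responses of 2.80 and 2.82 in knockout and 4.59 and 4.91 in wild type. Mt2 lay at 5.67, 4.73, 4.42 and 6.71 on treated knockout arrays, against 2.60, 1.30, 1.96 and 4.38 on untreated ones. Its wild-type levels were 9.28, 8.89, 9.12 and 9.38 on treated arrays, against 1.55, 3.34, 3.36 and 8.80 on untreated ones. In knockout, treated arrays lay above untreated ones without overlap for Cdkn1a, Mt1 and Mt2, and overlapped for Lcn2. All groups shared 1 estimate of spread, and the SD in untreated wild type was 2.07 for Cdkn1a, 2.78 for Mt1 and 3.14 for Mt2. The missing knockout calls of these genes therefore do not show a lack of response in knockout. Untreated wild-type array 4 was next to the treated arrays for Mt2, and it was the highest untreated array for each of the 4 genes. It was singled out after these levels were seen. Leaving out the highest untreated array enlarges the wild-type rises and the interactions, so the values without it are descriptions and no separate support. Without this array the interactions were -5.92 for Lcn2 (adjusted p = 0.00274), -4.91 for Cdkn1a (adjusted p = 0.00544), -3.60 for Mt2 (adjusted p = 0.0419) and -3.15 for Mt1 (adjusted p = 0.033), all called. The next largest unresolved rises above background on all 16 arrays were still not called, Cyp2b10 (-3.63, adjusted p = 0.108) and TC1537769 (-3.08, adjusted p = 0.144). Of the largest unresolved falls BC020489 was called, while Krt23, Rnf186, Cxcl10, AK048349 and Osgin1 were not. Without untreated wild-type array 4, 59 of the 661 unresolved rises and 59 of the 932 unresolved falls were called for the interaction, and 4 of the 21 glucocorticoid-induced genes, against 1 with it. Calls were also lost without it, since 166 of the 200 lost falls, 154 of the 164 lost rises, 63 of the 80 gained rises and 156 of the 167 gained falls were still called for the interaction.

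Kept responses were 65 rises and 111 falls. For 44 rises and 76 falls the 95% interval of the interaction lay within 2-fold either way. For the others a difference beyond 2-fold was within the interval. Lyve1, the hyaluronan receptor of sinusoidal and lymphatic endothelium, lay at 2.25, 2.42, 2.56 and 3.39 on treated knockout arrays, against 0.11, 0.02, 0.55 and -0.37 on untreated ones. In wild-type livers it measured 2.84, 2.16, 1.65 and 1.68 on treated arrays, against -1.12, -0.19, 0.09 and -0.08 on untreated ones. Treated arrays lay above untreated ones in both genotypes, without overlap, while the genotypes overlapped under each condition. The response was 2.58 (SE 0.33, adjusted p = 0.00133) in knockout and 2.41 (SE 0.33, adjusted p = 0.000672) in wild type, and the interaction 0.17 (95% interval -0.83 to 1.17). Ccn2, a matricellular growth regulator, responded by 2.90 (SE 0.40, adjusted p = 0.00215) in knockout and 2.35 (SE 0.40, adjusted p = 0.0023) in wild type, with an interval of -0.66 to 1.77. Ms4a8a and Ms4a6d, tetraspan membrane protein genes of a cluster used by myeloid cells, rose by 2.28 and 1.45 in knockout and 2.20 and 1.39 in wild type. Under normexp the changes of Ms4a8a were 1.33 in knockout and 1.06 in wild type, and the knockout call of Ms4a6d was just missed (1.01, adjusted p = 0.0502).

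Among kept falls Aif1, a calcium-binding protein of macrophages, lay at 0.63, 0.74, 1.18 and 0.85 on treated knockout arrays, against 3.30, 2.44, 1.98 and 2.56 on untreated ones. Levels in wild type were -0.45, 0.59, 0.55 and 0.49 on treated arrays, against 1.86, 1.89, 1.88 and 1.98 on untreated ones. Treatment separated the arrays of both genotypes, by -1.72 (SE 0.26, adjusted p = 0.00345) in knockout and -1.61 (SE 0.26, adjusted p = 0.00176) in wild type, with an interaction of -0.11 (95% interval -0.90 to 0.68). Plxdc1, an endothelial receptor, lay at -2.66, -2.63, -2.86 and -3.10 on treated knockout arrays, against -0.71, -1.36, -1.23 and -1.59 on untreated ones. In wild type Plxdc1 was at -3.38, -2.87, -2.99 and -2.96 on treated arrays, against -1.40, -1.42, -1.59 and -1.18 on untreated ones. Its changes were -1.59 (SE 0.18, adjusted p = 0.000802) in knockout and -1.65 (SE 0.18, adjusted p = 0.000186) in wild type, and under normexp -0.84 (adjusted p = 0.13) in knockout and -1.02 in wild type. Pth1r, the parathyroid hormone receptor, fell by 0.97 in knockout and 1.08 in wild type, with the narrowest interaction interval of the 8 named kept genes, -0.35 to 0.56. Ngfr, a neurotrophin receptor found on stellate cells, fell by 1.51 in knockout and 1.54 in wild type. A second, dimmer Ngfr probe gave 0.70 in knockout and -0.10 in wild type, neither called.

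Markers of cells other than hepatocytes were counted by shape. Of 64 tested markers of 10 other cell types 6 were kept (9.38%, against 0.953% of all genes), none was lost or reversed, 1 was gained and 4 were unresolved. Of 7 hepatocyte markers none was kept or lost and 2 were unresolved. Over all genes 1.97% were lost, 0.433% reversed, 1.34% gained and 8.62% unresolved. Few lost, reversed or gained genes would thus be looked for among 64, and few kept or lost ones among 7. The counts do not set hepatocytes apart from other cells. Among 8 tested B cell markers 3 were called lower in each genotype and none higher, against 2.4% of all genes called lower in knockout and 6.79% in wild type. The list medians were -0.30 in knockout and -0.60 in wild type. The B cell gene Cd79b, a chain of the B cell receptor complex, fell by 2.11 in knockout and 1.75 in wild type. Fcmr, the IgM Fc receptor, fell by 2.42 in knockout, and Ms4a1 (CD20) by 3.06, with signal above background on 3 and on 1 of 4 treated knockout arrays. Neither was well above background on any treated wild-type array, so the wild-type fall is a bound against the lowest signal that was, at least 4.63-fold for Fcmr (limma adjusted p = 0.000429) and at least 2.71-fold for Ms4a1 (adjusted p = 0.0100). The measured wild-type means were -5.49 treated and -3.01 untreated for Fcmr, and -6.17 treated and -3.78 untreated for Ms4a1. Among 8 tested endothelial markers 2 were kept, and they moved in opposite directions. Kdr, the endothelial VEGF receptor, fell by 1.03 in knockout and 1.13 in wild type, while Lyve1 rose by 2.58 in knockout and 2.41 in wild type. Of the MHC class II list, Ciita, its master regulator, fell by 1.94 in knockout and 0.94 in wild type, and H2-DMb1, a peptide loading chaperone, by 1.39 in knockout and 1.38 in wild type.

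The log2 of the summed signal of 8 B cell markers was -0.66 to -0.38 in treated and 0.09 to 1.42 in untreated knockout, and -1.31 to -0.93 in treated and -0.19 to 0.07 in untreated wild type. It was lower with treatment on every array of both genotypes. Sums of 9 T and NK cell markers were 0.34 to 0.99 in treated and 0.98 to 1.62 in untreated knockout, and 0.47 to 0.90 in treated and 0.82 to 1.02 in untreated wild type. For 8 endothelial markers they were 4.98 to 5.18 in treated and 5.06 to 5.58 in untreated knockout, and 4.79 to 4.89 in treated and 4.95 to 5.46 in untreated wild type. Sums of 3 adipocyte markers differed by genotype, at 3.30 to 7.85 in treated and 6.85 to 7.32 in untreated knockout, and -0.39 to 3.19 in treated and 0.51 to 1.89 in untreated wild type, with Adipoq and Lep too dim to test. Those of 5 pancreatic acinar markers were 1.37 to 2.32 in treated and 0.89 to 2.33 in untreated knockout, and 3.18 to 3.75 in treated and 2.26 to 2.61 in untreated wild type, highest in treated wild type without overlap, as in a lost rise. None of these 5 genes was called for a response or for the interaction. For Kupffer cell, neutrophil, stellate cell, cholangiocyte and erythroid markers the sums of treated and untreated arrays overlapped in both genotypes. The part that these cells take in any response was not tested.

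Classic induced genes were in both classes. Of 21 tested members of the glucocorticoid-induced list 11 were called higher with dexamethasone in wild type and 2 in knockout, 2 were kept, 1 lost and 9 unresolved, with a median interaction of -0.69. Over all genes 5.19% were called higher in wild type and 1.19% in knockout, 0.953% were kept, 1.97% lost and 8.62% unresolved. The kept ones were Fkbp5, a GR co-chaperone, and Ddit4, an mTORC1 inhibitor. Fkbp5 lay at -1.66, -1.22, -1.24 and 0.51 on treated knockout arrays, against -4.62, -2.88, -2.94 and -2.86 on untreated ones. In wild type it lay at 3.0, 3.01, 3.17 and 2.97 on treated arrays, against 0.11, -0.46, -1.63 and 1.70 on untreated ones. Knockout lay below wild type both with dexamethasone (log2 -3.94, SE 0.61, limma adjusted p = 0.00056) and without it (log2 -3.25, SE 0.61, adjusted p = 0.0133). Fkbp5 was above background on 3 of 4 untreated knockout arrays. Its response was 2.42 (SE 0.61, adjusted p = 0.0429) in knockout and 3.11 (SE 0.61, adjusted p = 0.00501) in wild type, and the interaction interval of -2.54 to 1.16 covers more than a 2-fold loss. The interaction of Fkbp5 was -0.69 with all arrays and -1.28 (adjusted p = 0.423) without untreated wild-type array 4, the highest of its group. Ddit4 rose by 2.49 in knockout and 3.38 in wild type, with an interval of -2.37 to 0.58.

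**Figure D3:**
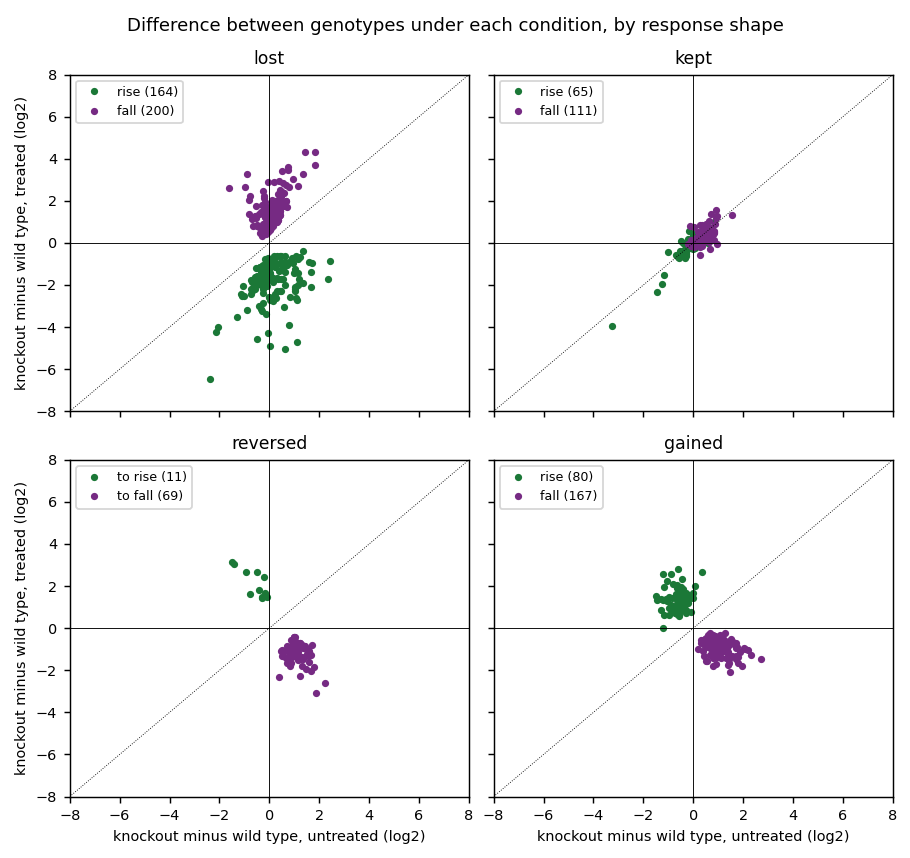
Knockout minus wild type in treated livers (vertical axis, log2) against the same difference in untreated livers (horizontal axis, log2), 1 point per gene, for lost (164 rises, 200 falls), kept (65, 111), reversed (11 to a rise, 69 to a fall) and gained responses (80, 167). Lost genes lie near 0 in untreated livers and away from it in treated ones. Genes that fell in knockout among the reversed and gained lie to the right of 0, with medians of 1.15 and 0.95 in untreated livers.

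Reversed responses were 69 genes that fell in knockout and rose in wild type and 11 the other way round. Ccdc33, a coiled-coil gene of testis, had the largest test statistic of those that met the full naming rule. It lay at -2.21, -2.69, -2.58 and -2.29 on treated knockout arrays, against -1.24, -1.41, -1.37 and -1.50 on untreated ones. Wild-type arrays gave -1.42, -1.29, -1.32 and -1.28 on treated arrays, against -2.16, -2.48, -2.09 and -2.0 on untreated ones. Treated and untreated arrays did not overlap in either genotype, and they lay in opposite order. The response was -1.06 (SE 0.13, adjusted p = 0.00133) in knockout and 0.85 (SE 0.13, adjusted p = 0.0014) in wild type, and the interaction -1.92 (SE 0.19, adjusted p = 0.000259) (-1.17 under normexp). In untreated livers it was higher in knockout by 0.80 (SE 0.13, adjusted p = 0.0088), and in treated livers lower.

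Scp2d1, a sterol carrier domain gene, had -1.79 (SE 0.31, adjusted p = 0.00626) in knockout and 1.35 (SE 0.31, adjusted p = 0.0113) in wild type, with an interaction of -3.14 (SE 0.43, adjusted p = 0.0021). Ighg1, an immunoglobulin heavy chain gene, had -1.08 (SE 0.14, adjusted p = 0.00176) in knockout and 0.65 (SE 0.14, adjusted p = 0.01) in wild type, but its second, dimmer probe rose in knockout by 1.48 (adjusted p = 0.0443), and with the mean of its probes the interaction was -0.23 (adjusted p = 0.80). L1cam, a neural adhesion molecule, and Ceacam20, an intestinal one, were named without the conditions on left-out arrays and normexp. Their interactions were -2.62 (SE 0.26, adjusted p = 0.000259) and -2.12 (SE 0.23, adjusted p = 0.000563), and under normexp -0.93 (adjusted p = 0.35) and -0.78 (adjusted p = 0.46).

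In the opposite direction Adat1, which edits an adenosine of transfer RNA, was the only gene to meet the full rule. It lay at 1.52, 1.54, 1.37 and 1.34 on treated knockout arrays, against 0.74, 0.55, 0.48 and 0.73 on untreated ones. The wild-type levels were -0.08, -0.16, -0.21 and 0.49 on treated arrays, against 0.76, 0.79, 0.83 and 1.30 on untreated ones. The interaction was 1.73 (SE 0.23, adjusted p = 0.00182), while 2 dimmer probes of Adat1 gave 0.0098 (SE 0.30) and -0.88 (SE 0.25). With the mean of its probes it was 0.29 (adjusted p = 0.60). Named without the stricter conditions were the olfactory receptor gene Olfr930 (interaction 2.23 (SE 0.32, adjusted p = 0.0026)) and Ftx, a noncoding RNA next to Xist (interaction 2.40 (SE 0.40, adjusted p = 0.00482)). Under normexp the interaction of Olfr930 was 1.41 (adjusted p = 0.0402).

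Gained responses were 80 rises and 167 falls in knockout. Cd3e, the CD3 epsilon chain of the T cell receptor, stood first among the named gained falls by its test statistic. It lay at -0.86, -0.72, -0.58 and -0.75 on treated knockout arrays, against 0.46, 0.11, 0.0 and 0.21 on untreated ones. In wild-type livers it measured -0.16, -0.14, 0.10 and 0.05 on treated arrays, against -0.10, -0.24, -0.41 and -0.14 on untreated ones. The treated knockout arrays lay below all others, and the wild-type groups overlapped. The response was -0.92 (SE 0.12, adjusted p = 0.00184) in knockout and 0.18 (SE 0.12, adjusted p = 0.383) in wild type, and the interaction -1.11 (SE 0.18, adjusted p = 0.0038). It was 1 of 9 T and NK cell markers tested and the single one called for the interaction, against 4.6% of all genes. The median knockout and wild-type responses of the list were -0.85 and -0.77.

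Foxo4, a forkhead factor under insulin control, lay at -1.92, -2.60, -2.07 and -3.47 on treated knockout arrays, against 0.60, 0.01, -0.79 and -0.84 on untreated ones. Levels in wild type were -0.97, -1.59, -1.07 and -1.43 on treated arrays, against -1.57, -3.30, -2.22 and -3.13 on untreated ones. The highest group was untreated knockout, which stood above untreated wild type by 2.30 (SE 0.43, adjusted p = 0.0124). Its response was -2.26 (SE 0.43, adjusted p = 0.00996) in knockout and 1.29 (SE 0.43, adjusted p = 0.063) in wild type, and the interaction -3.55 (SE 0.60, adjusted p = 0.00519) (-2.32 under normexp). Tango6, a gene of transport between ER and Golgi in fly, had an interaction of -1.58 (SE 0.26, adjusted p = 0.00434), and Tspo2, an erythroid cholesterol-binding protein, of -1.44 (SE 0.27, adjusted p = 0.00888). Both were also called higher in untreated knockout than in untreated wild type, by 0.89 and 0.81. Without untreated knockout array 1 the wild-type rise of Foxo4, Tango6 and Tspo2 was called too, and all 3 became reversed responses.

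Among gained rises 2410017I17Rik lay at 2.54, 2.38, 2.32 and 2.30 on treated knockout arrays, against 1.44, 1.16, 1.17 and 1.33 on untreated ones. In wild type it lay at 1.97, 1.87, 1.14 and 1.74 on treated arrays, against 1.94, 1.88, 1.84 and 2.38 on untreated ones. Its interaction was 1.44 (SE 0.25, adjusted p = 0.0052), with untreated knockout called lower than untreated wild type by 0.74 on the log2 scale (log2 -0.74). The olfactory receptor genes Olfr382 and Olfr1316 had interactions of 2.55 (SE 0.44, adjusted p = 0.00585) and 2.28 (SE 0.44, adjusted p = 0.0109). Olfr825 and the adenylyl cyclase gene Adcy1, named without the stricter conditions, had 1.83 (SE 0.36, adjusted p = 0.0113) and 1.19 (SE 0.24, adjusted p = 0.0123), and lost their call under normexp. Of the lists, Nr3c2, the mineralocorticoid receptor, which also binds glucocorticoids, and Hspa1l, a heat shock protein of testis, were gained rises. Nr3c2 lay at -2.46, -1.85, -2.70 and -2.53 on treated knockout arrays, against -3.13, -4.22, -3.63 and -3.33 on untreated ones. Wild-type arrays gave -3.07, -3.97, -4.04 and -3.39 on treated arrays, against -3.21, -3.31, -3.08 and -3.0 on untreated ones. Treated knockout lay above the other groups, and the interaction was 1.66 (SE 0.37, adjusted p = 0.0206), but 0.95 (adjusted p = 0.28) under normexp. Hspa1l had 3.44 (SE 0.69, adjusted p = 0.0126), with signal above background on 1 of 4 arrays in untreated knockout and in treated wild type. Under normexp it was 1.51 (adjusted p = 0.112), and without untreated knockout array 1 its shape was reversed to a rise.

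**Figure D4:**
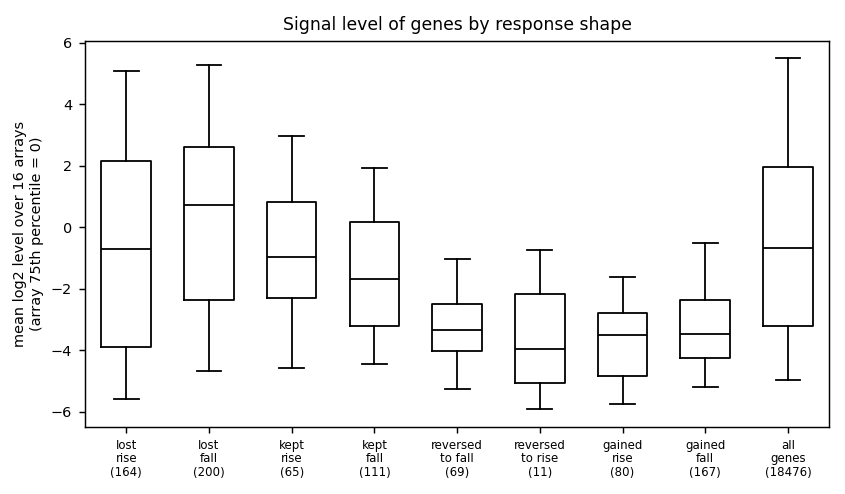
Mean level over the 16 arrays (log2, array 75th percentile set to 0) of genes of each shape and of all 18476 genes tested. Boxes span the quartiles with a line at the median and whiskers the 5th to 95th percentile. Reversed and gained genes have medians of -3.97 to -3.33, below lost, kept and all genes.

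Reversed and gained genes were dimmer than lost ones. Their median levels were -3.33 (reversed to a fall), -3.97 (reversed to a rise), -3.52 (gained rises) and -3.46 (gained falls), and 53.9% to 60.0% of them lay in the dimmest 25%. In untreated livers 53 of the 69 genes reversed to a fall and 71 of the 167 gained falls were called higher in knockout, and none lower, against 2.06% of all genes called higher. These differences come from the untreated arrays that the rule used and are a description. Second probes had the same sign of the interaction for 15 of 36 gained genes (41.7%) and 4 of 6 reversed ones, against 68.4% at large, and the median interaction of gained genes in the direction of the first probe was 1.68 by the first and -0.13 by the second. These second probes were dim, with median levels of -4.24 for gained and -4.54 for reversed genes, against -1.45 for lost genes and -1.66 at large. That limits what they can show. Under normexp the interaction call remained for 7 of 80 gained rises, 8 of 167 gained falls, 11 of 69 genes reversed to a fall and 3 of 11 reversed to a rise. Of 452 olfactory and vomeronasal receptor genes, which belong to sensory neurons and had a median level of -3.94 here, 27 were gained (5.97%), 13 reversed (2.88%), 13 lost (2.88%) and none kept, against 1.34% gained, 0.433% reversed, 1.97% lost and 0.953% kept of all genes.

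**Figure D5:**
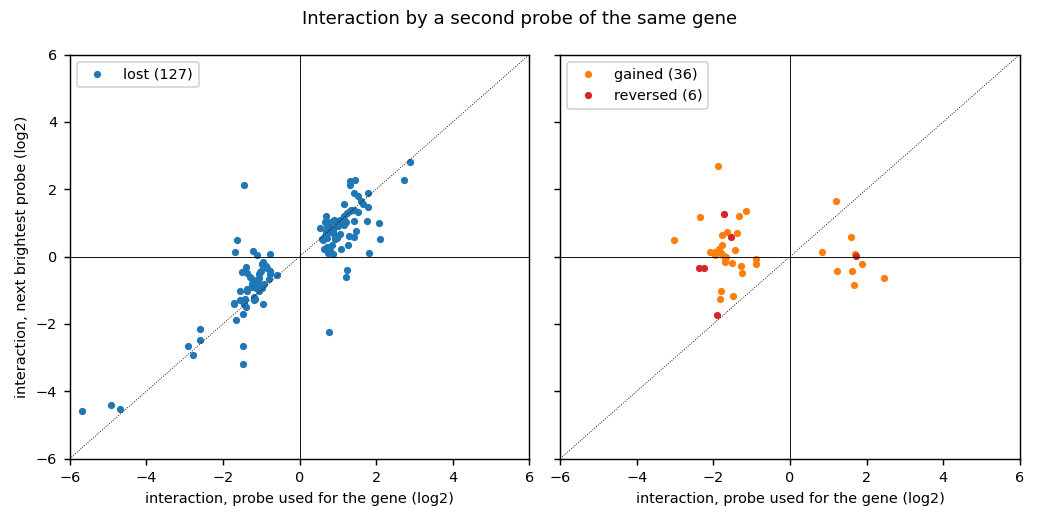
Interaction by the next brightest probe of a gene (vertical axis, log2) against that by the probe used for it (horizontal axis, log2), for 127 lost genes on the left and 36 gained and 6 reversed genes on the right, with a dotted line where both are equal. The left points follow the line (118 of 127 of the same sign), and the right points lie around 0 on the vertical axis (15 of 36 gained genes of the same sign).

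Dim probes as a whole moved with genotype and with 1 array. Among the dimmest 25% the median gene was higher in knockout than in wild type by 0.36 in treated and 0.31 in untreated livers, against 0.04 and 0.0049 in the other genes. Their median level was -3.54 on untreated knockout array 1 and -4.33 to -4.28 on the other 3 untreated knockout arrays. Without that array 92 of the 167 gained falls (55.1%) had the same shape, as had 71 of 80 gained rises, 57 of 69 genes reversed to a fall and all 11 reversed to a rise. The interaction was still called for 165 of the 167 gained falls. The part of signal level in these shapes was not tested.

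Promoters were searched for the receptor's binding motif because lost rises are genes whose rise was called only where the receptor was present in liver. In the 250 bases before the annotated start (RefSeq, GRCm38.p6), the core of the glucocorticoid response element, GNACANNNTGTNC, was present in 3 of 116 lost rises with a promoter (2.59%), 0 of 145 lost falls, 2 of 117 kept, 1 of 48 reversed and 0 of 131 gained genes, against 50 of 12038 genes tested (0.415%). The core reads the same on both strands. Single arms of the element, AGAACA or TGTTCT, which overlap some core matches, were in 19.0%, 8.28%, 14.5%, 22.9% and 10.7% of the same groups, against 14.3% at large. A match is a description of letters, and regulatory elements outside this window were not searched. The lost rises with a core match were Fyb2, Olfr482 and Pot1b, of which the last 2 were above background on 8 and 9 of 16 arrays. Under normexp the interactions of these 2 were -0.16 (adjusted p = 0.930) and -0.08 (adjusted p = 0.963), and that of Fyb2 was not called either. The kept genes with a match were Map3k6 and Slc10a6, and the reversed gene was Ccdc33. The promoters of Fyb2, Map3k6 and Slc10a6 are printed to show the match in a lost and in kept rises, 5′ to 3′ on the gene's strand, with cores and arms in capitals, at chr4:104913311-104913560 (plus strand), chr4:133240568-133240817 (plus) and chr5:103629404-103629653 (minus).
Fyb2: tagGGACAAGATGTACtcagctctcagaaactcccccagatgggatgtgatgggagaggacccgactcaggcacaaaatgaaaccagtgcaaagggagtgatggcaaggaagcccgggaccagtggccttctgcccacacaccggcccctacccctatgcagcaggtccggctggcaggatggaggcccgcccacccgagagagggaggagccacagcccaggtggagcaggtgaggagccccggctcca
Map3k6: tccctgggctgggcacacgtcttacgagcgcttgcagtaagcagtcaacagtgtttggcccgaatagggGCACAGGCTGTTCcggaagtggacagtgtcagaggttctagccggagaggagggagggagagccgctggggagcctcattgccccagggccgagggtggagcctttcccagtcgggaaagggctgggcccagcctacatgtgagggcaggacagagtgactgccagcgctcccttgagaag
Slc10a6: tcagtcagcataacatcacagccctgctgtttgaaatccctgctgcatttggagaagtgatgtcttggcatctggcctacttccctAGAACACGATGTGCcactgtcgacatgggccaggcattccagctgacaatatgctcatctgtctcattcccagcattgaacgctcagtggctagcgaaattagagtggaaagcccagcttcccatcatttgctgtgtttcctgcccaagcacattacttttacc

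The core starts at position -247 in Fyb2, -181 in Map3k6 and -163 in Slc10a6, counted from the annotated start. Fyb2, an adaptor gene, lay at -0.65, -0.75, -0.97 and -0.39 on treated knockout arrays, against -0.97, -1.43, -1.67 and -1.02 on untreated ones. The wild-type levels were 1.22, 0.40, 0.66 and 0.62 on treated arrays, against -0.91, -1.59, -1.54 and -1.22 on untreated ones. Treated wild-type arrays stood above all others, and the interaction was -1.46 (SE 0.31, adjusted p = 0.0151), with an adjusted p = 0.0573 under normexp. The response was 0.58 (SE 0.22, adjusted p = 0.165) in knockout and 2.04 (SE 0.22, adjusted p = 0.000184) in wild type. Treated knockout arrays also lay above untreated ones without overlap, so a smaller rise in knockout is not excluded. Map3k6, a stress-activated kinase of the MAP3K group, lay at 0.03, 0.21, 0.27 and 0.69 on treated knockout arrays, against -1.0, -2.11, -1.52 and -2.03 on untreated ones. In wild-type livers it measured 2.62, 1.85, 2.26 and 2.30 on treated arrays, against -0.62, -0.79, -1.21 and 0.92 on untreated ones. It rose in both genotypes, by 1.96 (SE 0.37, adjusted p = 0.011) in knockout and 2.68 (SE 0.37, adjusted p = 0.000762) in wild type, and its interval of -1.85 to 0.41 includes losses beyond 2-fold. Slc10a6, a sodium-dependent carrier of sulfated steroids, rose by 3.05 in knockout (adjusted p = 0.0486) and 2.61 in wild type (adjusted p = 0.0457), with signal above background on 1 of 4 untreated knockout and 2 of 4 untreated wild-type arrays. Its interaction interval of -1.97 to 2.85 covers differences beyond 2-fold either way.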

How the data were processed

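Liver RNA of 4 groups of 4 samples was measured on 1-colour arrays. The deposited scanner files hold, per the file headers, a processed signal per spot as an intensity, background-subtracted by the authors (Agilent Feature Extraction 9.5 in the submitters' processing notes), with raw mean and background signals also as an intensity. The deposited flags for detection, saturation and outliers are neither, and count as other. A deposited table of the whole series is an intensity too and differed from the processed signal by 0 at most. No step between arrays had been applied. Probe positions are on mm7.

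Of 45018 spots 1639 controls were left out, and 2121 outlying spots (0.306%) were set to missing. Of 41174 probes 22944 were named through RefSeq accessions, 6664 through symbols and 3108 through synonyms, and 8458 kept the name of the file. The 75th percentile of an array was subtracted from its log2 signals. A probe had to be well above background on 3 or more of the 4 arrays of some group (26794 were), and the brightest probe stood for a gene (18476 genes, of which 15148 have a symbol). Under R 4.3.3, limma 3.58.1 fitted 4 group means on 16 arrays with 12 residual degrees of freedom. Tests were two-sided with Benjamini-Hochberg adjustment over all genes. A missing spot is dropped from its gene's fit, and 18452 genes had none. The fit was tested on simulated data. The number of arrays limits the precision. Plots were made in Python 3.11.15 with matplotlib 3.10.9.

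Named genes were above background on all 16 arrays with no missing spot, differed at least 2-fold in response (not for kept), made the calls of their shape in each fit without 1 array (a response not called could become called) with the interaction within 1.5 times of its full value, and (not for kept) kept the interaction call under normexp. Of these the 8 lost rises, 8 lost falls and 4 of each other shape with the largest test statistics were named, up to 2 more per shape without those conditions, and up to 3 called members per list, whatever the other conditions. For these, the text says where a call was lost under normexp or without 1 array, and 1 list member is not reported here and was taken out of its list. The shapes, lists and markers were chosen with earlier results of these data known. No pairing by replicate number was assumed. Residuals of same-numbered arrays correlated between -0.186 and 0.347 (median 0.0763), with 10 of 24 pairs over 0.1. Each slide held 1 group, so slide could not be a block. Alternatives were normexp (offset 50) and others given in the closing section.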

Additional observations from a re-analysis of the deposited data

Results flagged for a closer look

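Some arrays lay far from the other 3 of their group, by a gap over Dixon's 95% limit for 4 values. This was examined in 58 named genes, each in 4 groups, and 20 of 232 groups were picked out, where chance alone picks about 1 in 20. Untreated wild-type array 4 accounted for 7 of them, at 2.13 for Nr3c1, 2.05 for Emc8, 1.30 for Adat1, -0.77 for Olfr382, 0.0029 for Tango6, 7.10 for Aass and 0.46 for Insig1. Untreated knockout array 1 stood out for Fgfr4 (3.40) and Hspa1l (-3.15), and untreated knockout array 4 for Usp18 (2.07) and Sult1e1 (-3.61). Treated knockout array 4 stood out for Gadd45a (1.92), Mmp15 (0.98) and Oasl1 (1.07), and treated knockout array 3 for Clock (0.46). In treated wild type these were array 3 for Rab7 (4.33), array 2 for Fibin (0.27) and Usp18 (1.43), and array 1 for Aif1 (-0.45). Untreated wild-type array 1 stood out for Fgfr4 (3.34).

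The response differed between knockout and wild type, by the test of the interaction, for 49 named genes. Lost rises had interactions of -1.47 for Cab39l, -1.37 for Emc8, -1.30 for Atp11b, -1.31 for Stxbp3, -4.68 for Defb1, -1.06 for Rab7, -4.92 for Gadd45b and -3.22 for Fibin. From the lists, lost rises were Orm3 (-3.72), Saa4 (-2.60), Slc25a15 (-1.33), Aass (-1.46), Clock (-1.37), Usp18 (-1.75) and Sult1e1 (-4.09). Lost falls were Dbp (2.57), Igsf8 (1.65), Meiob (1.31), Gadd45a (2.51), Mov10 (1.19), Mmp15 (1.60), Dzip1l (2.08) and Ldlrad4 (1.30). From the lists came Srebf1 (2.86), Acly (1.70), Stard4 (1.66), Insig1 (1.48), Fgfr4 (0.99), Irf9 (0.94) and Oasl1 (1.93). Reversed responses had -1.92 for Ccdc33, -1.73 for Ighg1, -3.14 for Scp2d1, -2.62 for L1cam, -2.12 for Ceacam20, 1.73 for Adat1, 2.23 for Olfr930 and 2.40 for Ftx. Gained rises had 1.44 for 2410017I17Rik, 2.55 for Olfr382, 2.28 for Olfr1316, 1.83 for Olfr825, 1.19 for Adcy1, 3.44 for Hspa1l and 1.66 for Nr3c2. Gained falls had -1.11 for Cd3e, -1.58 for Tango6, -3.55 for Foxo4 and -1.44 for Tspo2.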

How the results depend on the processing

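The counts of calls depended on the processing more than the sizes did. With the 849 interaction calls split into 41.5% positive, normexp background correction left 102 (27.5% positive), with 54 lost rises, 18 lost falls, 7 reversed, 4 gained rises, 2 gained falls and 27 kept. No filter on dim probes left 536, with 104, 88, 41 and 47 of the first 4 shapes and 102 kept. Array weights gave 2726 (56.5% positive), with 618, 848, 286 and 489 of those 4 and 420 kept. Leaving out both arrays with a low 75th percentile, an alternative chosen after seeing the data, gave 1507, with 398, 374, 126 and 304 and 109 gained falls. Quantile normalization gave 135 reversed, 168 gained rises and 254 gained falls, and a stricter filter 52, 42 and 101. Requiring 2-fold changes left 104 lost falls, 35 reversed and 73 kept, and sorting by size alone gave 36 reversed and 86 kept. With replicate number as a block there were 1065 interaction calls, 127 reversed and 122 gained rises, and 48 of the 49 named interaction genes stayed called. Leaving out 1 array in turn gave 498 to 1476 interaction calls, 88 to 332 lost rises, 84 to 372 lost falls, 29 to 127 reversed, 36 to 304 gained rises, 70 to 229 gained falls and 97 to 203 kept. The highest of each count but gained falls came without untreated knockout array 1, and the lowest interaction count without untreated wild-type array 2. The 49 named interaction genes had the same direction under all settings that gave a value, with 33 still called under normexp, 40 with no filter and 41 with the mean of probes. Normexp moved the median interaction of all genes to 0.11, against 0.03. The cause of these differences was not tested. Percentile over bright probes, outlying spots kept, mean of probes, trended variance and the deposited table left every count within 1.5 times. Dim genes limit what can be told, since a level near background bounds a change.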
